A study of Homo sapiens with 2 samples.

Results

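The solute carrier (SLC) genes encode membrane proteins that move amino acids, sugars, vitamins, ions and metabolites across the plasma membrane, the lysosome, the Golgi and the inner mitochondrial membrane. Members were taken by symbol: SLC, a family number, a letter and a number, with the SLCO genes admitted by the same rule. Probe sets annotated with several gene symbols were left out. Of 14884 genes then named by the platform annotation, 20 met the symbol rule, in 13 SLC families, and each was measured by 1 probe set. No SLCO gene was among them. RefSeq lists 390 symbols of this form, and the other 370, among them the glucose transporter SLC2A1 and the amino acid transporter SLC7A5, were not analysed here. Most of the 20 are recent entries of the SLC system, known earlier as MFSD, PQLC or TMEM genes, and for several the substrate is not settled.

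The samples were SNK6 cells, a human NK/T-cell lymphoma line kept in medium with serum and interleukin-2. Both cultures received the histone deacetylase inhibitor romidepsin for 72 h. One culture (1 array) had romidepsin alone and the other (1 array) had romidepsin with sildenafil, a phosphodiesterase inhibitor. The treatment therefore cannot be told apart from variation between cultures or arrays. No dose is stated in the sources read, and cells without romidepsin were not analysed here. The sample title names the second drug only by a short form, which was read as sildenafil from the treatment protocol.

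Solute carriers share a logic more than a sequence. Some are uniporters that let a substrate run down its gradient, and others couple it to sodium, protons or a counter-substrate. Families differ in membrane as well as in cargo: SLC25 carriers sit in mitochondria, SLC35 carriers serve the Golgi and endoplasmic reticulum, and PQ-loop carriers of the SLC66 family include a lysosomal exporter. Dividing lymphoid cells depend on such carriers for amino acids and for the precursors of nucleotides and glycans.

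With 1 array per treatment there was no replicate error, and no difference was tested. Each value is a log2 signal, and each difference is the combination array minus the romidepsin array on that scale. A gene counted as higher or lower at 1.5-fold or more between the arrays, which is 0.585 in log2 units. As a yardstick of size, each SLC gene was set beside the 1000 other named genes nearest to it in mean signal. Their SD is a spread over genes between these 2 arrays and not a replicate error. Signals of different probe sets are not comparable as transcript levels, so the order of signals between genes carries no meaning here. The deposited arrays had nearly equal distributions, with medians of 3.89 (romidepsin) and 3.92 (combination), so each difference is relative to the rest of the array. Of the listed NK and T cell markers, 9 were named in the annotation, with 5 above 0, 4 below and differences from -0.27 (NKG7) to 0.24 (CD5). Among them, PRF1 (perforin) read 8.83 without and 8.81 with sildenafil, and NCAM1 (CD56) read 6.63 and 6.54. GNLY of the same list read 3.82 and 3.92, near the array medians. Of the listed markers of B cells 2 were named, of monocytes and macrophages 5, and of fibroblasts and epithelia 4. Their log2 differences lay between -0.42 (VSIG4) and 0.34 (KRT18). KRT18 read 7.04 without and 7.38 with sildenafil, and marker signals were not used to identify the cells.

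None of the SLC genes reached 1.5-fold in either direction. All 20 passed the signal filter, which asked for 3.91, the median of the whole table, on the brighter of the arrays; of all named genes 10081 (67.7%) did so. Past 1.5-fold these 10081 genes had a share of 1.02% upward and 0.972% downward with sildenafil, so 0 of 20 is close to that background and says little about the SLC genes as a set. The median difference of the SLC genes was 0.02, against -0.01 for all genes past the filter. Beside 47.2% above 0 over all these genes, 11 SLC genes (55%) lay above 0 and 9 below. Their differences ran from -0.39 (SLC66A3) to 0.24 (SLC75A1), inside the central 95% of all genes (-0.44 to 0.47). In 9 of the 20 the arrays differed by less than 0.1, where the median absolute difference over all genes past the filter was 0.12. At a threshold of 1.3-fold, which 4.05% of all genes passed downward and 4.62% upward, 1 SLC gene was lower and none was higher.

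**Figure D1:**
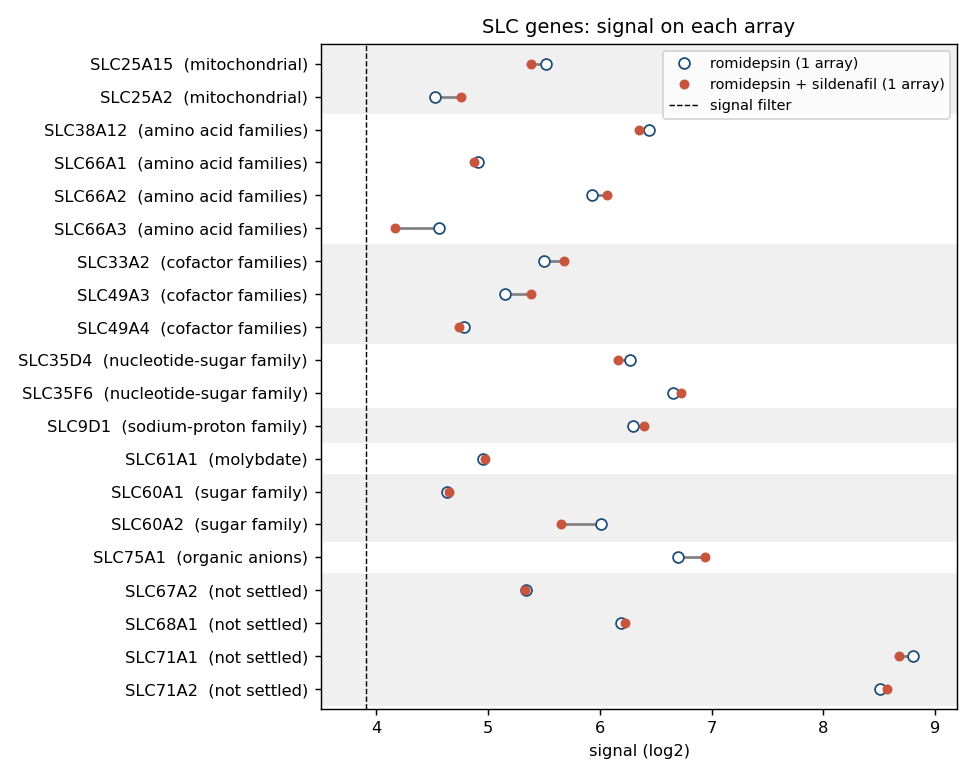
Log2 signal of each of the 20 SLC genes on the romidepsin array (open circles) and the romidepsin plus sildenafil array (filled circles), 1 array each, with genes grouped by the cargo of their family; the dashed line marks the signal filter of 3.91. All 20 genes lie to the right of the filter on both arrays, and the widest gaps are those of SLC66A3 and SLC60A2.

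The mitochondrial carriers were the ornithine transporters SLC25A15 and SLC25A2, which exchange ornithine and related amino acids across the inner membrane. SLC25A15 links the urea cycle steps in cytosol and matrix, and its loss causes a disorder of high blood ornithine and ammonia. SLC25A15 read 5.52 without and 5.39 with sildenafil, a difference of -0.13. SLC25A2 read 4.53 and 4.75, a difference of 0.23. The paralogues thus lay on opposite sides of 0, each within the SD of genes of like signal (0.23 for SLC25A15 and 0.25 for SLC25A2). They are related in coding sequence, and whether their probe sets share signal was not tested.

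The PQ-loop family SLC66 held 3 members, and these spread wider than the pairs of the other families. A range over 3 genes tends to be wider than a range over 2, so the families are not compared like for like. SLC66A3 also lies at a signal where the SD over genes is the largest of the set (0.26). SLC66A1, known as PQLC2, exports cationic amino acids from the lysosome. It read 4.91 without and 4.87 with sildenafil, a difference of -0.04. SLC66A2 read 5.93 and 6.07, a difference of 0.13. SLC66A3 read 4.56 and 4.17, a difference of -0.39. SLC66A3, whose substrate is not settled, was thus lower with sildenafil by 1.31-fold, the only SLC gene past 1.3-fold. Among the 1000 genes nearest in signal the SD was 0.26, and 12.6% differed by at least as much. Between its lowest and highest member the family spanned 0.53. SLC38A12, a multi-pass protein placed in the family of sodium-coupled neutral amino acid transporters, read 6.44 without and 6.35 with sildenafil, a difference of -0.08.

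SLC60A2 had the next lowest difference. Under its older names MFSD4B and NaGLT1 it is described as a sodium-dependent glucose transporter. It read 6.01 on the romidepsin array and 5.65 on the combination array. The difference of -0.36 (1.29-fold lower) had a size of 1.79 times the SD of genes of like signal, measured from 0. On that measure it was the furthest of the set, and 7.6% of the genes of like signal differed by at least as much. The rank depends on measuring from 0, since the median of the neighbours was -0.03 here, 0.07 for SLC66A3 and -0.04 for SLC75A1. The relative of SLC60A2, SLC60A1 (MFSD4A), read 4.63 and 4.65, a difference of 0.02. The transcript SLC60A1-AS1, which is no member, lay below the filter on both arrays (2.69 and 2.57).

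The start regions of SLC66A3 and SLC60A2 are printed because these genes had the largest differences of the set, both downward, and yet stand at opposite ends in GC boxes. The RefSeq promoter table (250 bases before to 50 after a start, GRCh38.p14) held 15 of the 20 genes. SLC25A2, SLC33A2, SLC35D4, SLC35F6 and SLC66A2 were not matched. The GC box, the core motif of SP-family transcription factors, was searched as GGGCGG on both strands with overlaps counted, and is in capitals below. The SLC66A3 window lies at chr2:11155217-11155516 on the plus strand and the SLC60A2 window at chr6:111259089-111259388 on the plus strand.
SLC66A3: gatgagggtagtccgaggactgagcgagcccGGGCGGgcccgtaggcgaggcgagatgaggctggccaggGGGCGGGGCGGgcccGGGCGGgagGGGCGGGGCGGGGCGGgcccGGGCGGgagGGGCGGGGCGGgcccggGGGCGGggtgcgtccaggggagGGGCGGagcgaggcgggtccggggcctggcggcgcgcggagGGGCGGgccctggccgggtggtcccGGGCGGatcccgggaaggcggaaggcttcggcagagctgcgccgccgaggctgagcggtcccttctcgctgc
SLC60A2: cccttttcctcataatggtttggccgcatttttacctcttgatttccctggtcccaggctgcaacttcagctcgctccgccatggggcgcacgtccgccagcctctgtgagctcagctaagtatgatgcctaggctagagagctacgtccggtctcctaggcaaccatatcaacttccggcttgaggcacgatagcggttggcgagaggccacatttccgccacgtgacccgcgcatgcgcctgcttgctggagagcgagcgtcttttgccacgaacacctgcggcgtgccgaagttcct
SLC66A3 held 14 GC boxes in a window of 82.3% G and C, some of them overlapping, and SLC60A2 held 0 in a window of 58.7%. SLC60A2 was the only one of the 15 without a GC box at its first listed start. At least 1 GC box was in 14 of the 15 and in 15786 of all 35116 RefSeq windows. The 15 count only the first listed start of each gene, while all windows can hold several starts of a gene, so the sets are unlike. The 15 genes also all passed the signal filter, while the full set of windows was not limited to genes past it. Windows of other genes past the filter were not counted apart. The E-box CACGTG, the core site of MYC and of the lysosomal regulator TFEB, was in SLC60A2 and SLC61A1, 2 of 15 against 7.26% of all windows. CCAAT was in 3 of 15 against 34.6%, and TATAAA in 0 of 15 against 11.5%. The median window of the 15 held 36 CpG dinucleotides, against 14 over all windows. These matches describe letters in a window and not binding.

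**Figure D2:**
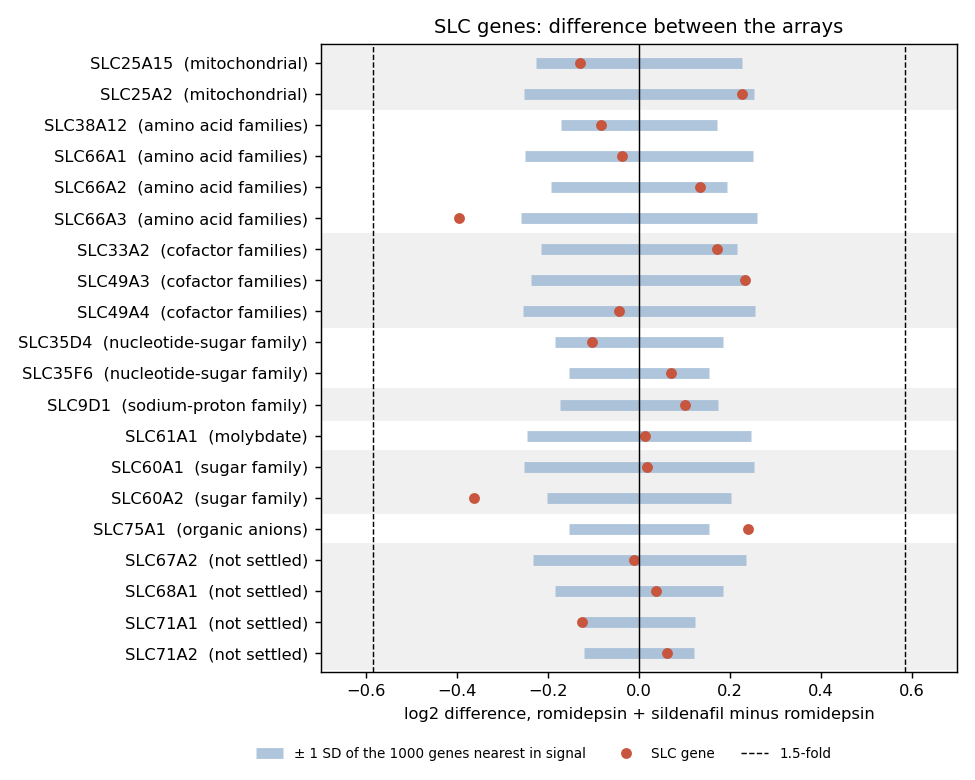
Log2 difference between the arrays (combination minus romidepsin) for each SLC gene (points), with bars from minus to plus 1 SD of the 1000 named genes nearest in signal; dashed lines mark 1.5-fold. SLC66A3, SLC60A2 and SLC75A1 lie clearly outside their bars, SLC71A1 lies at the edge of its bar, and the other 16 lie inside.

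The cofactor-related families had a median difference of 0.17 over 3 genes, which is the value of SLC33A2, against -0.01 for all genes past the filter. Medians of the other cargo groups with more than 1 gene ran from -0.17 (sugar family, 2 genes) to 0.05 (mitochondrial carriers, 2 genes). SLC49A3 and SLC49A4 belong with the FLVCR proteins, carriers of heme and choline. SLC49A3 (MFSD7) read 5.15 without and 5.39 with sildenafil, a difference of 0.23. SLC49A4 (DIRC2), a lysosomal membrane protein, read 4.79 and 4.74, a difference of -0.04. SLC33A2 (MFSD3) is grouped with the acetyl-CoA transporter of the endoplasmic reticulum. It read 5.50 and 5.67, a difference of 0.17. SLC49A3 lay within the SD of genes of like signal (0.24), and so did SLC33A2 (0.22).

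The nucleotide-sugar transporter family, which supplies activated sugars to the Golgi for glycan synthesis, was close to equal on the arrays. SLC35D4 (TMEM241) read 6.27 without and 6.16 with sildenafil, a difference of -0.10. SLC35F6, which binds an adenine nucleotide carrier of mitochondria, read 6.65 and 6.72, a difference of 0.07. Among genes of like signal, 49.8% differed by at least as much as SLC35D4 and 64.5% by at least as much as SLC35F6.

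Of the ion and micronutrient carriers, SLC9D1 (TMCO3), which resembles sodium-proton exchangers, read 6.30 without and 6.40 with sildenafil, a difference of 0.10. SLC61A1 (MFSD5), a molybdate transporter, read 4.95 and 4.97. Its difference of 0.01 was exceeded or equalled by 94.9% of genes of like signal.

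SLC75A1 had the highest difference of the set. Known before as MFSD10 or TETRAN, it resembles bacterial tetracycline exporters and carries organic anions. It read 6.70 on the romidepsin array and 6.94 with sildenafil. The difference of 0.24 (1.18-fold higher) was 1.57 times the SD of genes of like signal (0.15), and 12.3% of those genes differed by at least as much. SLC49A3 and SLC25A2 had differences almost as large (0.23 each) but lay where the spread is wider. The promoter table listed 2 starts for SLC75A1, with 1 GC box in the first window and 0 in the second.

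The remaining members are major facilitator proteins with no settled substrate. SLC71A1 and SLC71A2 (MFSD14A and MFSD14B) were first described as transcripts abundant in hippocampus. SLC71A1 read 8.80 without and 8.68 with sildenafil, a difference of -0.13. SLC71A2 read 8.51 and 8.57, a difference of 0.06. Genes of this signal spread little, with an SD of 0.12, so that the small difference of SLC71A1 had a size of 1.02 times the SD and was equalled or exceeded by 26.2% of its neighbours. The paralogues have related sequences, and whether their probe sets share signal was not tested. SLC67A2 (MFSD9) read 5.34 and 5.33, a difference of -0.01, the smallest of the set. SLC68A1 (MFSD13A) read 6.19 and 6.22, a difference of 0.04.

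**Figure D3:**
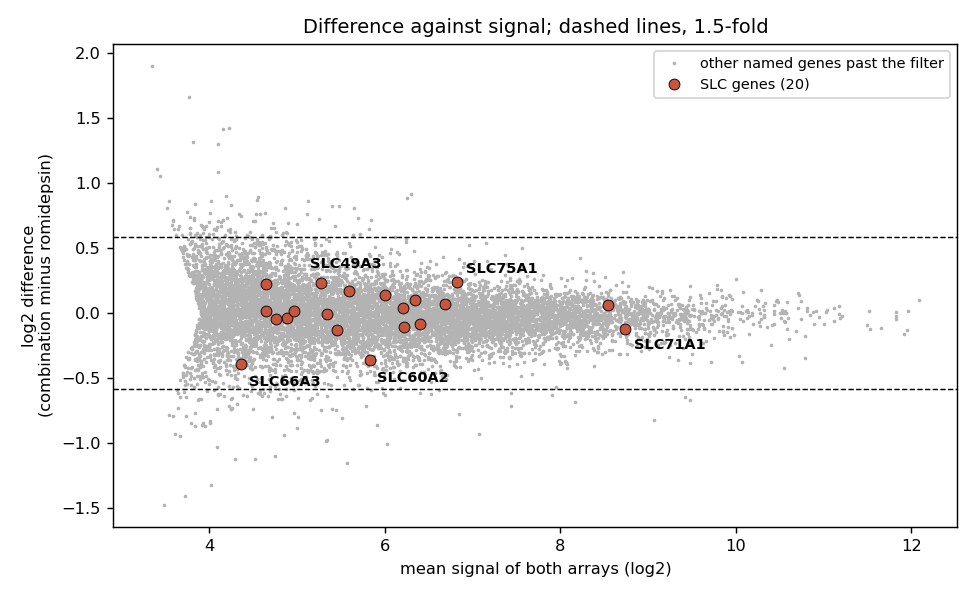
Log2 difference (combination minus romidepsin) against the mean log2 signal of both arrays for the 10081 named genes past the filter (grey) and the 20 SLC genes (red); dashed lines mark 1.5-fold. The grey cloud narrows towards high signal, all 20 SLC genes lie between the dashed lines, and SLC75A1 lies nearer the edge of the cloud than SLC49A3 at a similar difference.

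Members of one family lay on both sides of 0, in several families by differences near 0. These were SLC60A1 (0.02), SLC49A4 (-0.04), SLC71A2 (0.06) and SLC35F6 (0.07), each within 1 SD of genes of like signal. In each of the 6 families with more than 1 member (13 genes in all) at least 1 gene lay above 0 and at least 1 below, except that with lowess centring SLC60A1 moved to -0.02 and both SLC60 genes were then below 0. The span within a family ran from 0.17 (SLC35) to 0.53 (SLC66). With 2 or 3 genes a family and no replicates, this is a description of these arrays only. Against their signal neighbours, 16 of the 20 lay within 1 SD of 0, 4 beyond 1 SD and 0 beyond 2 SD. The same count was not made over all genes, so it says little about the SLC genes as a set. Distances were taken from 0 and not from the median of the neighbours. That median was -0.02 for SLC71A1, whose place beyond 1 SD depends on this choice.

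The sizes of the SLC differences were like those of other genes. The median absolute difference was 0.10 for the SLC genes and 0.12 for all genes past the filter. For the 173 TMEM genes past it, another large group of multi-pass membrane proteins, it was 0.13, and 1 of these was at least 1.5-fold higher and 1 lower. The SD of the differences was 0.17 over the SLC genes and 0.20 over all 7892 named genes in their signal range. No difference in spread between these groups was tested.

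**Figure D4:**
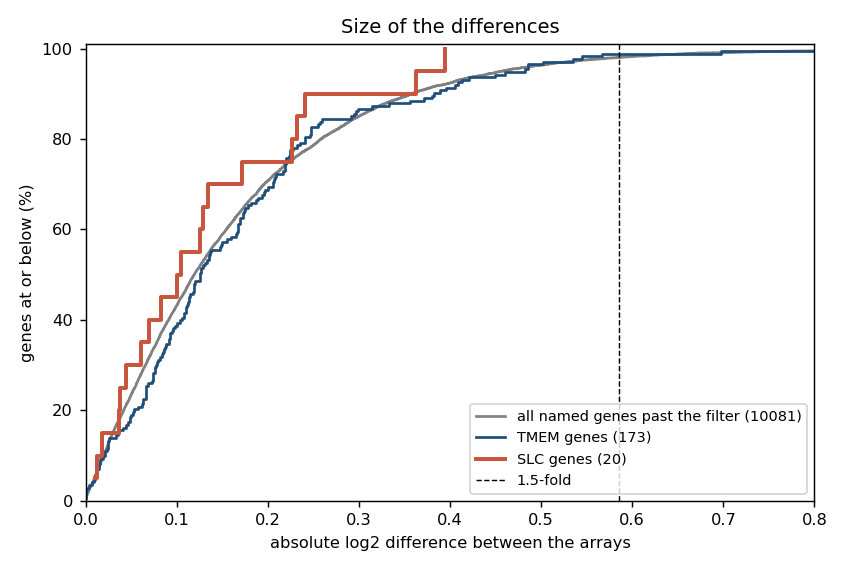
Share of genes (%) whose absolute log2 difference between the arrays is at or below the value on the horizontal axis, for the 20 SLC genes (red), the 173 TMEM genes (blue) and all 10081 named genes past the filter (grey); the dashed line marks 1.5-fold. The red steps follow the other curves and end at 0.39, the absolute difference of SLC66A3.

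Of the genes that work with solute carriers, NIPA1 was the only one past the filter to reach 1.5-fold. Over all genes past the filter the share was 1.02% upward and 0.972% downward. At these shares, 1 such gene or none in lists of this size says little about the lists. The median over all genes past the filter was -0.01 and 47.2% of them lay above 0, and no list was tested against these values. Of carriers that keep other symbols, 27 of 34 named genes passed the filter, with a median of -0.09, 10 above 0 and 17 below. NIPA1, a magnesium transporter, read 4.75 without and 4.11 with sildenafil, a difference of -0.64 and the only one of the 27 past 1.5-fold. The related NIPAL4 was at 0.31 and MFSD11 at -0.29, while MPC1 and MPC2, which together import pyruvate into mitochondria, were at -0.16 and -0.10. Of the chaperones and scaffolds, 8 of 9 named genes passed the filter with a median of -0.06 and none past 1.5-fold. BSG (basigin), which brings lactate transporters to the cell surface, was at 0.09, its relative EMB (embigin) at -0.16, the scaffold PDZK1 at -0.18 and PDZK1IP1 at 0.47 from a romidepsin signal of 3.82, below the filter.

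The mTORC1 pathway senses amino acids that carriers deliver. Of its 24 named genes 23 passed the filter, with a median of 0.03, 12 above 0, 11 below and none past 1.5-fold. RRAGB, a Rag GTPase that docks mTORC1 at the lysosome, was at 0.30, and the leucine sensors SESN2 and SESN1 were at -0.29 and -0.25. MTOR itself was at 0.12. Of the sodium pump list only FXYD regulators were named, and the 5 past the filter had a median of -0.13 with none past 1.5-fold, among them FXYD1 at -0.18, FXYD6 at 0.15 and FXYD3 at -0.15. The catalytic subunits of the sodium pump and the vacuolar proton pump were not analysed here.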

How the data were processed

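RNA from each of the 2 cultures was converted to biotin-labelled sense cDNA with a whole-transcript kit and hybridised, per the labels' protocols. The deposited table gives 1 log2 signal per array for 53617 probe sets; the authors' background correction, summarisation and normalization are not stated in any source read, and base 2 was read from the range (0.79 to 13.05). Sorted columns differed by at most 0.15. Probe sets annotated with several gene symbols were left out. The platform annotation named 16098 of the remaining probe sets, and every gene had an identifier found in RefSeq. The brightest probe set stood for a gene, and genes whose brighter array reached 3.91 were kept. The number of arrays limits the precision.

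Samples were grouped by title. No test was possible with 1 array per group; counts use a rule of size (1.5-fold). All members were named in the text. Partner genes were named when among the 3 largest absolute differences of their list past the filter. Further ones (MPC1, MPC2, BSG, MTOR) were chosen after their values were seen. The members and lists were chosen with earlier results of these data known, and roles of families 60 to 75 were assigned with the members known. Alternatives changed the filter, normalization, probe sets, threshold and membership. The counting was tested on simulated data with 1 probe set per gene and no filter. That check could not test the choice of probe set or the signal filter. The tools were Python 3.11.15, pandas 2.3.3, numpy 2.4.6, and, for lowess, statsmodels 0.14.6.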

Additional observations from a re-analysis of the deposited data

How the results depend on the processing

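No SLC gene was at least 1.5-fold higher or lower under any alternative with that threshold: no filter, stronger filters, quantile normalization, centring on the median or by lowess (span 0.3), the mean of all probe sets, only genes with 1 probe set, and every symbol starting with SLC. Every SLC gene had 1 probe set and passed the filter, so the filter and probe-set settings could not raise these counts. Only the normalizations and the wider membership could. At 1.3-fold 1 gene (SLC66A3) was lower. The median difference stayed between -0.01 (lowess centring) and 0.05 (brighter array at least 5, 14 genes left). With that filter the mitochondrial carriers moved to -0.13 and the sugar family to -0.36, since 1 gene was left in each. Normalization moved no single gene by more than 0.06, and the sign changed only for genes near 0: SLC60A1 and SLC61A1 (lowess), and SLC67A2 (median centring and quantile). No paired analysis was possible because each group holds 1 array. Signals near the filter limit what can be seen: neighbours of SLC66A3 in signal had an SD of 0.26, those of SLC71A2 0.12.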

Other observations

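The annotation named 18 further genes whose symbols begin with SLC but do not meet the rule, most of them antisense or divergent transcripts at SLC loci, and 8 passed the signal filter. SLC25A25-AS1 read 4.70 without and 5.11 with sildenafil, a difference of 0.41. SLC8A1-AS1 read 7.18 and 6.81, a difference of -0.36, and SLC25A5-AS1 read 4.64 and 4.28, also -0.36. The genes that give these 3 transcripts their names (SLC25A25, SLC8A1 and SLC25A5) were not analysed here. Whether these probe sets separate the strands was not tested.

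The subunits of the steroid and bile acid transporter, SLC51A and SLC51B, fall outside the symbol rule because no number follows their letter. SLC51B read 4.17 and 4.32, a difference of 0.14. SLC51A read 3.05 without and 3.76 with sildenafil; its difference of 0.71 exceeds 1.5-fold, but both signals lie below the filter of 3.91.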
